A study of Mus musculus with 16 samples.

Results

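The genes of the DNA replication machinery were followed across 8 groups of mouse cells. They are the subunits and partners that recognise, license and fire replication origins, the polymerases, clamp and ligase that copy DNA at the fork, and 4 enzymes that supply its building blocks. The members were chosen by name: a probe belonged to the set if its target in the deposited raw table was 1 of 44 listed genes or an older name of one (Mcm2 as Mcmd2, Cdc45 as Cdc45l, Orc1 to Orc6 with a final l). The rule reads names alone, but the list was chosen with earlier results of these data known. Of the 44 genes, 41 of the 32091 genes in the table were found, with 74 probes. Mcm3, Gins1 and Gins2 had no probe under these names and are not among the members tested. The probes of Pola1, the catalytic subunit of polymerase alpha, and of Pole2, an accessory subunit of polymerase epsilon, were detected on no array. The other 39 genes are described by their brightest probe, and each of these 39 probes was detected on all 16 arrays, so no gene entered through the group in which it was high.

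Total RNA was hybridised to 16 Illumina MouseWG-6 version 1.1 arrays, 2 biological replicates per group. Of the 5 lines of induced pluripotent stem (iPS) cells, 4 carry an E in their name (OSCE #8, OSCE #13, OSE #T8 and OSE #T9, written here without the number sign) and are called Esrrb lines; the other is OSCK. The letters are commonly read as Oct4, Sox2, c-Myc, Klf4 and Esrrb, the reprogramming factors, a reading that the labels leave unstated. The 2 fibroblast groups were mouse embryonic fibroblasts (MEFs) with a green fluorescent protein (GFP) transgene under the Actin promoter or under the Pou5f1 promoter, and the last group was R1 embryonic stem (ES) cells. The iPS and ES cells grew on MEF feeders that had been treated with mitomycin C, a drug that stops cells from dividing, in serum medium with LIF. The MEFs grew in serum medium, for which the labels name neither feeders nor LIF. Feeder RNA can therefore be part of every iPS and ES sample, each line is a single line, and passage number, cell density and cell cycle phase are not given in the sources used here. The study's stated question was how the Esrrb lines compare with ES cells and with MEFs.

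A cell can copy its genome once per cycle because origins are licensed in G1 and fired in S phase. The origin recognition complex marks the site, and Cdc6 and Cdt1 load the ring of Mcm2 to Mcm7 onto it. Cdc45 and the GINS complex then turn that ring into the running helicase, and the polymerases, the sliding clamp Pcna and its loader follow. Many of these genes are transcribed under E2F factors as cells leave G1, and mouse ES cells are known for a short G1 and a large share of cells in S phase.

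Between 35.5% and 38.8% of the probes were detected on an array. The cell types carried their labels' markers: 11 of 11 measured pluripotency genes were detected in ES cells and in each iPS line, against 1 of 11 in Actin-GFP MEFs and 3 of 11 in Pou5f1-GFP MEFs. The 12 fibroblast markers summed to 15.05 to 15.20 on the log2 scale on the MEF arrays, 13.01 to 13.53 on the iPS arrays and 12.92 to 13.08 on the ES arrays, and at least 11 of the 12 were detected in every iPS line and in ES cells. By the array names, the first and second replicates of a group lay on 2 different slides. OSCE 8, OSCK, both MEF groups and ES cells shared 2 slides, and OSCE 13, OSE T8 and OSE T9 shared 2 others. For OSCE 13, OSE T8 and OSE T9 against MEFs or ES cells, slide and group therefore cannot be told apart.

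The promoters of the members were read from RefSeq (GRCm38.p6), which gave a 300-base window around the start of 36 of the 44 genes. An E2F consensus, taken as TTTCCCGC, TTTCGCGC, TTTGCCGC or TTTGGCGC on either strand with overlapping matches counted singly, stood in 13 of the 36 windows (36.1%), against 4.02% of the 9908 windows of genes tested on these arrays. The CCAAT box (CCAAT on either strand) stood in 22 windows (61.1%), against 38.6% of those 9908, and the cell cycle homology region (TTTGAA or TTCGAA on either strand) in 6 (16.7%), against 14.3%. These shares describe letters in a window and do not show binding. Mcm6 had the most, with 3 matches of which 2 overlap, and Mcm3, Mcm5, Mcm7 and Rfc3 had 2 each, which overlap in Mcm5. The windows below are shown because their genes differ in what the arrays measured: Orc1, Cdc6, Mcm5 and Mcm6 hold a match and were lower in MEFs than in ES cells, Orc3 holds a match and was not called, and Mcm10 holds none and had the largest difference. Each runs 5′ to 3′ on the gene's strand and capitals mark the E2F matches. The Mcm10 window ends in all but the last letter of TTTGGCGC, so a match across its edge cannot be read. The windows are chr4:108579204-108579503 (plus strand) for Orc1, chr11:98907901-98908200 (plus) for Cdc6, chr8:75109259-75109558 (plus) for Mcm5, chr1:128359656-128359955 (minus) for Mcm6, chr4:34614893-34615192 (minus) for Orc3 and chr2:5012742-5013041 (minus) for Mcm10.
Orc1: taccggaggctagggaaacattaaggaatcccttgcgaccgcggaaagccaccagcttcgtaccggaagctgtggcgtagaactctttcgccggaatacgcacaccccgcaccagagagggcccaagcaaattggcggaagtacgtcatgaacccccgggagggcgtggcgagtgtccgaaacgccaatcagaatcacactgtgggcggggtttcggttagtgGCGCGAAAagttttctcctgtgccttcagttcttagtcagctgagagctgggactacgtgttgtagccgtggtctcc
Cdc6: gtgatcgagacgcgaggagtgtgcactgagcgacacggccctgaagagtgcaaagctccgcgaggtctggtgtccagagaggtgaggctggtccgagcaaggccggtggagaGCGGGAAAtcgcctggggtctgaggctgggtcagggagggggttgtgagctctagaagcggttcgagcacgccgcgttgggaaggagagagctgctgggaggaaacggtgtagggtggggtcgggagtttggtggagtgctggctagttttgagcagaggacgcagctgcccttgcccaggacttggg
Mcm5: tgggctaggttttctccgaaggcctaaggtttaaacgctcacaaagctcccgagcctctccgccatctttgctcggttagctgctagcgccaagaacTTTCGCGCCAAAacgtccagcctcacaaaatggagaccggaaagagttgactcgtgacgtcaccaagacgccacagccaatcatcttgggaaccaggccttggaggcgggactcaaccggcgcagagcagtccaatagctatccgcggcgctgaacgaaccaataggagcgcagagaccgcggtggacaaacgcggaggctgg
Mcm6: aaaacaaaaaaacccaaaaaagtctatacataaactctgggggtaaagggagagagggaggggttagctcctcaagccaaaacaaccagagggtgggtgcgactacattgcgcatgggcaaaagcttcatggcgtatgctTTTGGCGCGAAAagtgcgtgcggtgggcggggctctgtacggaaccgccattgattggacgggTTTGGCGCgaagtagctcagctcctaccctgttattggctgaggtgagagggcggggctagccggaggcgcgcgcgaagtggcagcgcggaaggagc
Orc3: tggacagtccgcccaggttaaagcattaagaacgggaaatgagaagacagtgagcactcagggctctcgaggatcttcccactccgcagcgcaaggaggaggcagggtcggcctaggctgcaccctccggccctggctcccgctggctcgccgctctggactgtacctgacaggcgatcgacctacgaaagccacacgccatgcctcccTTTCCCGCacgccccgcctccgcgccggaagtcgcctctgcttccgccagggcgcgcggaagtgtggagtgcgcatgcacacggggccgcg
Mcm10: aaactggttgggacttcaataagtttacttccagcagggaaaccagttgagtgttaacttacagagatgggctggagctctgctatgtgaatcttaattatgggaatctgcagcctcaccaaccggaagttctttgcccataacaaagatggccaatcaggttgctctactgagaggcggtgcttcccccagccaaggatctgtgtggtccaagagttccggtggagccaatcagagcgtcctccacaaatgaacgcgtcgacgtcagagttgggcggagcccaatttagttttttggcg

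The replication genes were lower in MEFs than in ES cells nearly throughout. Of the 39 members, 36 (92.3%) fell, none rose and 3 were not called, at an adjusted p under 0.05 in a limma fit across all 15643 genes. In the same fit 61% of all genes were called, 30.3% of all genes lower in MEFs and 30.7% higher. The median difference of the members was -0.98 on the log2 scale (MEFs minus ES cells), against -0.02 for all genes tested. Of the 39 members 19 fell at least 2-fold, a size that 23.2% of all genes passed in either direction. Arrays of bulk RNA cannot tell apart fewer cells in S phase and less of each transcript per cell. ES cells and both MEF groups shared slides. The median over the members was -0.93 within the slide of the first replicates and -1.06 within that of the second. For each member the fitted difference is the mean of its differences on these 2 slides, so the medians are no separate check. Markers of other cell types moved with this comparison. The 9 measured macrophage markers summed to 11.27 to 13.06 in MEFs and 9.58 to 9.65 in ES cells, with 8 or 9 detected in each MEF type and 3 in ES cells, and the 6 measured muscle markers summed to 9.37 to 10.22 in MEFs and 8.55 to 8.75 in ES cells. In the iPS lines the macrophage markers summed to 8.83 to 10.94, below every MEF array. The muscle markers summed to 8.40 to 9.46 in the iPS lines, and OSCE 13 (9.40 to 9.46) overlapped with Actin-GFP MEFs (9.37 to 9.45). Endothelial markers, 3 measured, went the other way, with 6.74 to 6.91 in MEFs, 8.51 to 8.53 in ES cells and 7.28 to 8.52 in the iPS lines. One of these, Pecam1, was detected in ES cells and every iPS line and in neither MEF type. Their sum therefore need not stand for endothelial cells. The part of such cells in the differences from MEFs was not tested.

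**Figure D1:**
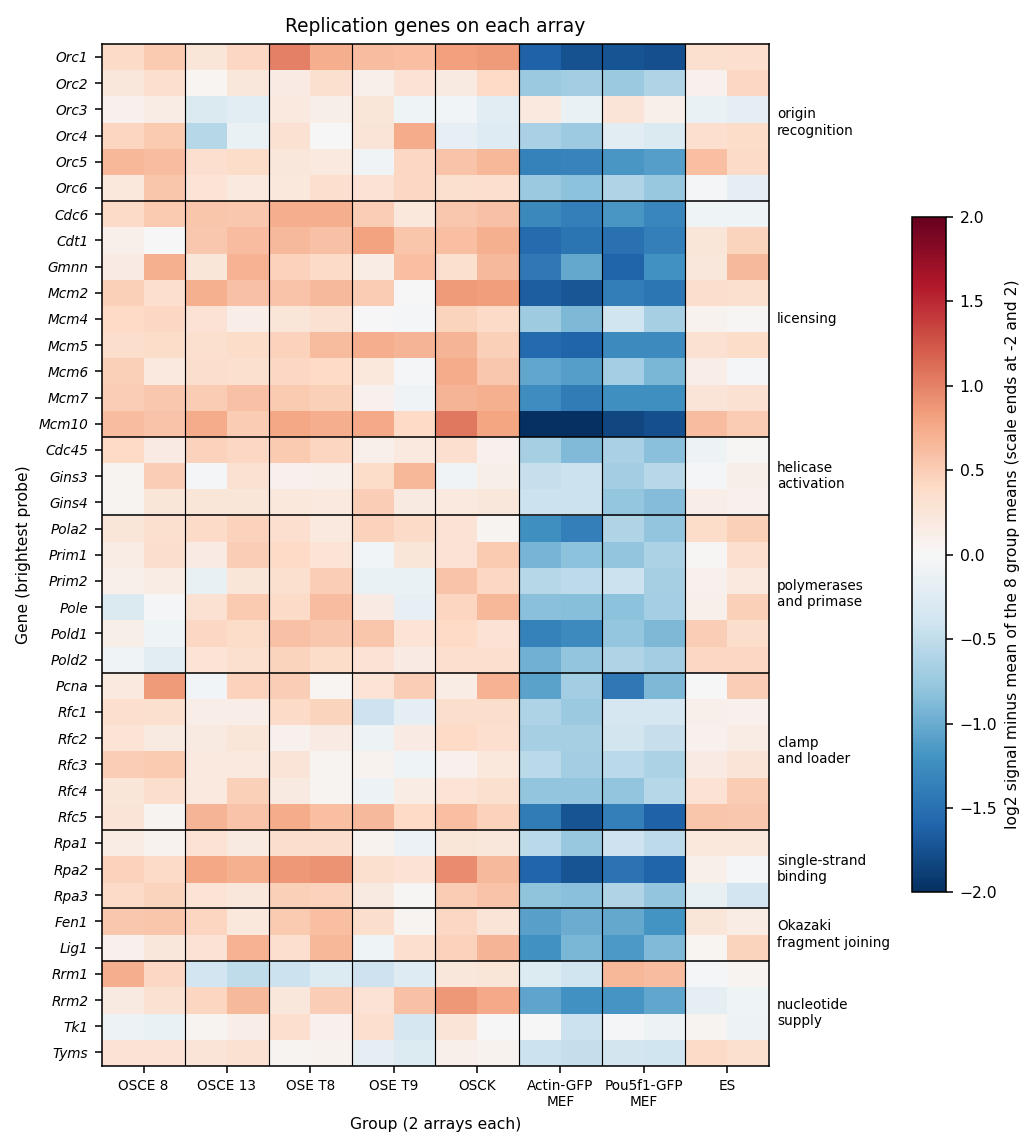
Signal of the 39 replication genes (rows, grouped by role) on the 16 arrays (columns, 2 per group), as log2 signal minus the mean of the 8 group means. The 4 MEF columns are blue for the 36 genes that fell against ES cells, while Orc3, Rrm1 and Tk1 do not follow them.

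Origin recognition fell in 5 of 6 subunits, with a median of -0.88. Orc1, the largest subunit, had 5.61 and 5.48 log2 units on the Actin-GFP MEF arrays, 5.50 and 5.46 on the Pou5f1-GFP MEF arrays, and 7.55 and 7.56 in ES cells. All 4 MEF arrays lay far below both ES arrays, and the difference was -2.04 ± 0.10 (SE; limma adjusted p = 2.61e-10), or 4.12-fold lower. Orc5, an ATP-binding subunit, fell by 1.73 ± 0.12 (3.31-fold), and Orc2, Orc4 and Orc6 fell by 0.94, 0.82 and 0.62. Of the 3 tested Orc4 probes 1 was called lower, with differences from -0.82 to -0.10. The brightest had 5.02 and 4.94 in Actin-GFP MEFs, near the detection floors of those arrays (4.96 and 4.89). Orc3, another core subunit, was the exception, with 6.30, 5.97, 6.36 and 6.20 on the MEF arrays against 5.97 and 5.91 in ES cells, a difference of 0.27 ± 0.12 (limma adjusted p = 0.066). Its values in MEFs lay at or slightly above those in ES cells and did not pass the test.

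Licensing had the largest median difference of the roles: all 9 measured members fell, with a median of -1.76. Mcm10, which binds the helicase as it starts to unwind, had 5.98 and 5.67 on the Actin-GFP MEF arrays and 6.25 and 6.32 on the Pou5f1-GFP MEF arrays, against 8.70 and 8.59 in ES cells. The groups were more than 2 log2 units apart on every array, and the difference of -2.59 ± 0.13 (limma adjusted p = 2.1e-10), 6.01-fold lower, was the largest of the 39. Mcm2 had 8.69, 8.62, 8.96 and 8.89 in MEFs against 10.69 and 10.65 in ES cells, lower by 3.68-fold. Cdt1, the loading factor, and Gmnn, which encodes geminin, the inhibitor of Cdt1, fell together, by 1.80 ± 0.10 and 1.76 ± 0.20. Cdc6, the other loading factor, fell by 1.19 ± 0.10, with 7.66, 7.59, 7.78 and 7.65 in MEFs against 8.86 on each ES array. Among the ring subunits Mcm5 fell by 1.76, Mcm7 by 1.56 and Mcm4 by 0.71. The probe used for Mcm6 fell by 0.98, and another Mcm6 probe went the other way, as given further on.

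The genes that start and run the fork fell too. In helicase activation Cdc45 fell by 0.72 ± 0.11, Gins4 by 0.73 ± 0.10 and Gins3 by 0.58 ± 0.14, the smallest median (-0.73) among the roles of which all measured members fell. All 6 polymerase and primase members fell, with a median of -1.13. Pold1, the catalytic subunit of polymerase delta, had 8.92 and 9.0 in Actin-GFP MEFs and 9.51 and 9.37 in Pou5f1-GFP MEFs, against 10.76 and 10.63 in ES cells. It fell by 1.49 ± 0.11, and Pola2, an accessory subunit of polymerase alpha, fell by 1.43 ± 0.10. Pole, the catalytic subunit of polymerase epsilon, fell by 1.09 and the primase subunits Prim1 and Prim2 by 0.97 and 0.69.

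The clamp and its loader fell in 6 of 6 members. Rfc5, a small loader subunit, had 8.52, 8.18, 8.54 and 8.30 in MEFs against 10.47 and 10.45 in ES cells, 4.23-fold lower (difference -2.08 ± 0.12). The other loader subunits fell by between 0.60 (Rfc1) and 1.13 (Rfc4). Pcna, the clamp, fell by 1.27 ± 0.24 with wide spread between replicates: it had 8.04, 8.42, 7.69 and 8.21 in MEFs and 9.12 and 9.60 in ES cells. All MEF arrays lay below both ES arrays for Pcna. The higher array of each of these 3 groups lay on the same slide. Of the single-strand binding complex, Rpa2 fell by 1.64 ± 0.10, Rpa1 by 0.76 ± 0.10 and Rpa3 by 0.49 ± 0.10. Fen1, which trims Okazaki fragments, and Lig1, which joins them, fell by 1.27 and 1.29.

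Nucleotide supply was divided. Rrm2, the small subunit of ribonucleotide reductase, fell by 0.98 ± 0.12 and Tyms, thymidylate synthase, by 0.76 ± 0.08. Rrm1, the large subunit of the same reductase, had 8.89 and 8.77 in Actin-GFP MEFs and 9.83 and 9.79 in Pou5f1-GFP MEFs, against 9.14 and 9.22 in ES cells. The ES arrays thus lay between the MEF types, and the difference over both types, 0.14 ± 0.11, was not called. Tk1, thymidine kinase, had 9.30, 8.88, 9.27 and 9.21 in MEFs against 9.36 and 9.20 in ES cells, with the groups overlapping (difference -0.12 ± 0.16, limma adjusted p = 0.571).

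**Figure D2:**
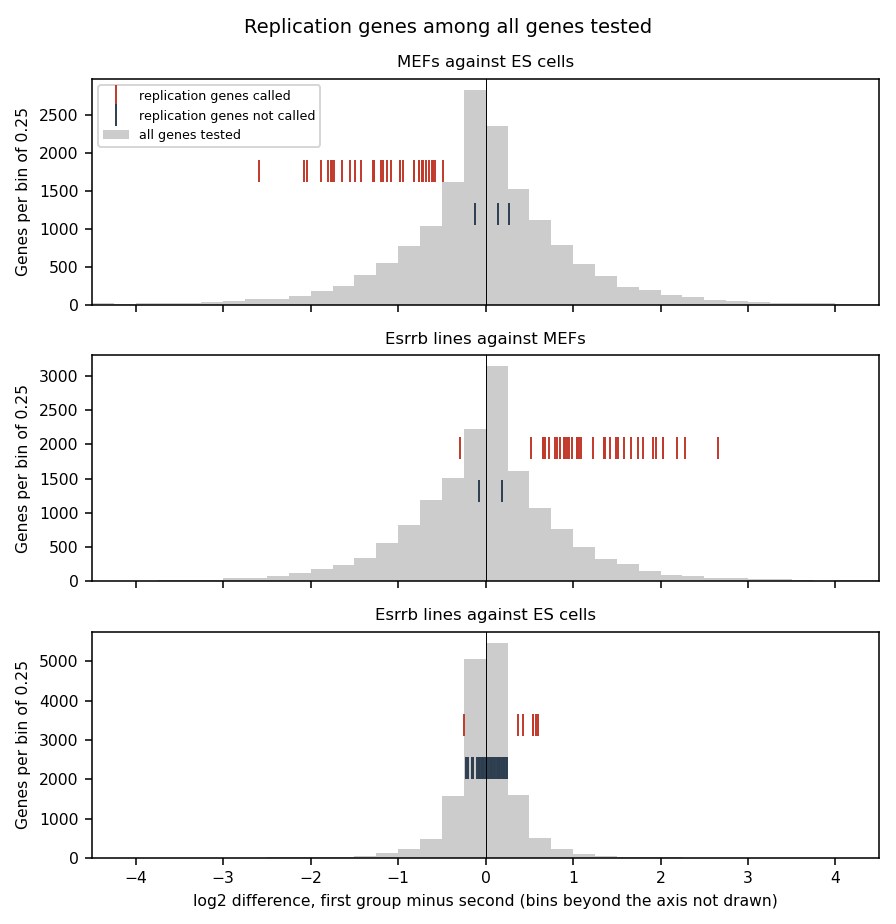
Histograms of the log2 difference of all 15643 genes tested (grey, genes per bin of 0.25) in 3 comparisons, with the 39 replication genes as ticks, red where called and dark where not. The ticks lie mostly left of 0 for MEFs against ES cells and right of 0 for the Esrrb lines against MEFs, and between -0.25 and 0.60 for the Esrrb lines against ES cells.

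Against MEFs, the Esrrb lines carried more of almost every replication transcript. Of the 39 members 36 rose, Rrm1 fell, and Orc3 and Tk1 were not called. That made 94.9% called, against 69.1% of all genes, with 34.5% of all genes higher in the lines. The members' median was 1.07, against 0.03 for all genes tested. At least 2-fold differences were called in 22 of the 39 members, against 21.3% of all genes. This comparison uses the same 4 MEF arrays as the one with ES cells. OSCE 8 alone, the line hybridised on the MEFs' slides, had 37 members called, all higher, an alternative chosen after seeing the data. The share of all genes called for OSCE 8 alone is not given here.

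The members with the largest rises were Mcm10 (2.65 ± 0.09, 6.29-fold), Orc1 (2.28 ± 0.07, 4.85-fold), Rpa2 (2.19 ± 0.07, 4.55-fold), Mcm2 (2.03 ± 0.09, 4.08-fold), Rfc5 (2.02 ± 0.09, 4.07-fold) and Cdt1 (1.94 ± 0.07, 3.84-fold). Mcm10 had 8.70 and 8.64 in OSCE 8, 8.82 and 8.58 in OSCE 13, 8.85 and 8.80 in OSE T8 and 8.83 and 8.47 in OSE T9, against 5.67 to 6.32 on the 4 MEF arrays. Every line array lay more than 2 log2 units above every MEF array. By role, all 9 licensing members rose (median 1.79), as did all 3 of helicase activation (0.85), all 6 polymerase and primase members (1.02), all 6 of clamp and loader (0.87), all 3 single-strand binding members (1.07) and both joining enzymes (1.42). Origin recognition rose in 5 of 6 subunits, and nucleotide supply in 2 of 4. Of the 3 tested Orc4 probes 1 was called higher, and their differences ran from -0.13 to 0.67.

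Rrm1 was the member that went down, by 0.30 ± 0.08 from the mean of both MEF types (limma adjusted p = 0.00308), and it differed between lines. It had 9.89 and 9.58 in OSCE 8, 8.78 and 8.65 in OSCE 13, 8.74 and 8.90 in OSE T8 and 8.75 and 8.91 in OSE T9, so that OSCE 8 stood apart from the other 3 lines. With OSCE 8 alone the difference from MEFs was 0.41, the opposite sign. The MEF types averaged 8.83 (Actin-GFP) and 9.81 (Pou5f1-GFP). Every Esrrb line mean lay below the Pou5f1-GFP MEFs. Against Actin-GFP MEFs, OSCE 8 (9.73) lay above, while OSCE 13 (8.71), OSE T8 (8.82) and OSE T9 (8.83) lay close, so the fall depends on the MEF type. OSCE 13, OSE T8 and OSE T9 were on other slides than the MEFs, and the part of the slides in the difference was not tested.

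In OSCK against the same MEFs, 35 of 39 members rose, none fell, and Orc3, Orc4, Rrm1 and Tk1 were not called, a share of 89.7% against 61.5% of all genes, with 29.8% of all genes higher. The median was 1.20 against 0.02 for all genes, and 26 of the 39 members differed at least 2-fold, against 23.4% of all genes. Mcm10 had 9.14 and 8.87 in OSCK and rose by 2.95 ± 0.13 (7.71-fold), Orc1 by 2.55 ± 0.10, Rpa2 by 2.40 ± 0.10 and Mcm2 by 2.39 ± 0.12. OSCK and MEFs shared slides, and the median over the members was 1.20 within one slide and 1.25 within the other. The fitted difference is again the mean over these 2 slides, so the medians are no separate check.

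**Figure D3:**
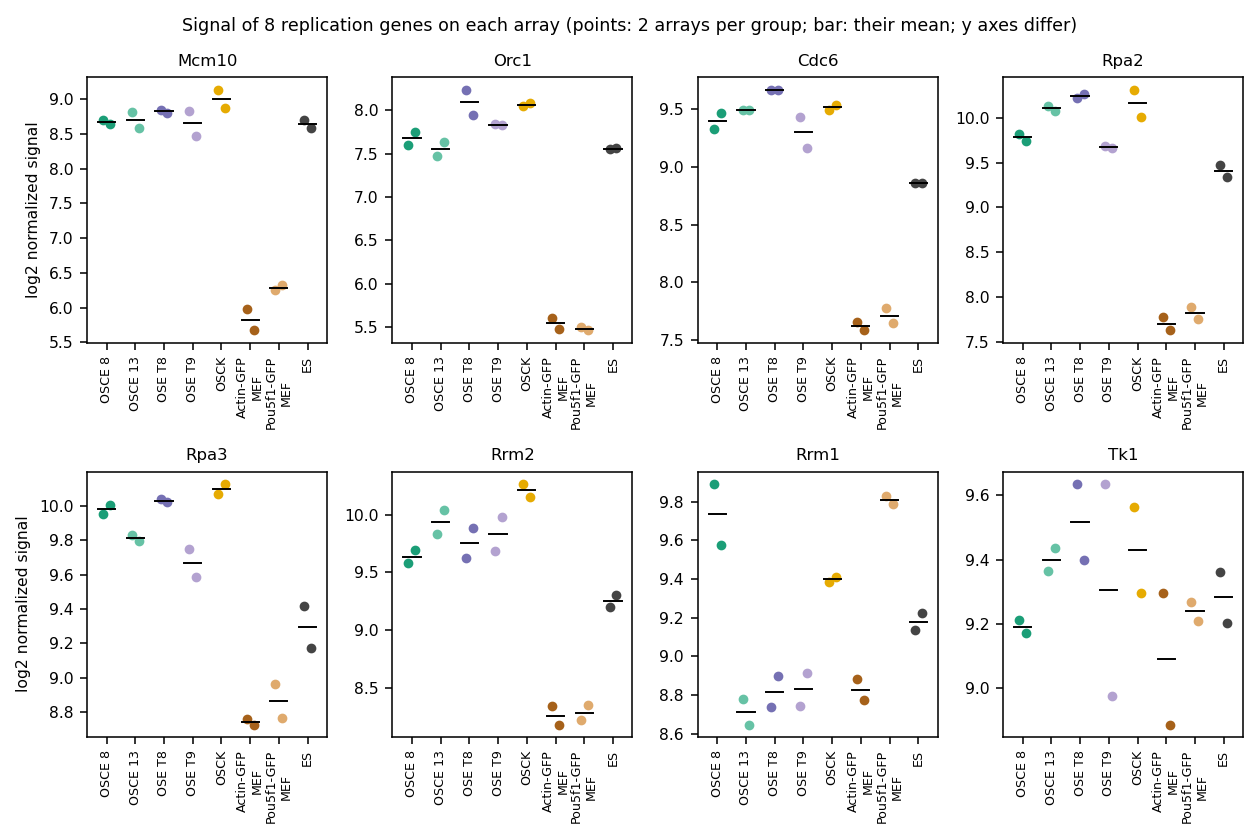
Log2 normalized signal of 8 replication genes on every array (points) with the mean of each group (bar); the y axes differ between panels. Mcm10, Orc1, Cdc6, Rpa2, Rpa3 and Rrm2 are lowest in the MEFs, Cdc6, Rpa3 and Rrm2 are higher in all 5 lines than in ES cells, Rrm1 is split between lines and between MEF types, and Tk1 overlaps between groups.

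Set against ES cells, the Esrrb lines differed in few replication genes and by little, by the brightest probe of each gene. Of the 39 members 6 rose, Tyms fell and 32 were not called. That was 17.9% against 22.5% of all genes (11.2% higher and 11.3% lower), so the members were called about as often as genes at large. The median difference was 0.07, against 0.01 for all genes. By its brightest probe no member reached 2-fold, where 3.15% of all genes did. The 95% confidence interval of that difference lay inside 2-fold for all 39. The interval rests on the spread between arrays of a group and leaves out the spread between lines. By another probe, 540181, Mcm6 was 2.80 higher in the Esrrb lines than in ES cells, as described further on. The 6 that rose were Cdc6 (0.60 ± 0.09), Rpa3 (0.58 ± 0.09), Rpa2 (0.54 ± 0.09), Rrm2 (0.54 ± 0.11), Orc6 (0.43 ± 0.10) and Cdc45 (0.37 ± 0.10). None of these 7 calls was left in a limma fit in which each line counted as 1 replicate (4 members at an unadjusted p under 0.05), and median centring in place of quantile normalization left 3 higher and 0 lower. Without the second ES replicate 4 calls were left. OSCE 8 alone, on the slides of the ES cells, had 8 members called.

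Cdc6 had 9.33 and 9.47 in OSCE 8, 9.49 on both OSCE 13 arrays, 9.67 on both OSE T8 arrays, 9.43 and 9.16 in OSE T9 and 9.49 and 9.54 in OSCK, against 8.86 on both ES arrays. All 10 iPS arrays lay above the ES arrays, and Cdc6 was called higher in each of the 5 lines, by 0.44 (OSE T9) to 0.81 (OSE T8). The call was lost with median centring in OSCE 8 and OSE T9, and in OSE T9 also with only its own groups and without either ES replicate or its own first. Rpa3, the smallest subunit of the single-strand binding complex, was also called in 5 of 5 lines. It had 9.95 and 10.01 in OSCE 8, 9.83 and 9.79 in OSCE 13, 10.04 and 10.02 in OSE T8, 9.75 and 9.58 in OSE T9 and 10.06 and 10.13 in OSCK, against 9.42 and 9.17 in ES cells. Its lowest iPS array was in OSE T9 and still lay above the higher ES array, and its call was lost without the second ES replicate in OSCE 13 and OSE T9, and in OSE T9 also with median centring, with only its own groups or without its own first replicate. Orc6, Rpa2 and Rrm2 were called higher in 4 of 5 lines. These 5 comparisons share the same 2 ES arrays, so a call in several lines is not several independent observations. How many of all genes were called in as many lines is not given here. The fibroblast markers, a sign of feeder and MEF RNA, summed higher in 4 of the 5 lines than in ES cells and overlapped with ES cells in OSCE 8. The 6 genes that rose in the Esrrb lines were lower in MEFs than in ES cells. The treated feeders themselves were not on any array, and the part of feeder RNA in these rises was not tested.

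Line by line, OSE T8 had 8 members higher and none lower, 20.5% called, against 20.7% of all genes (10.4% higher and 10.3% lower). OSCE 8 had 6 higher and 2 lower, 20.5% against 24.2% of all genes (11.6% higher, 12.5% lower). OSCE 13 had 5 higher and 2 lower, 17.9% against 19.4% (9.77% higher, 9.65% lower). OSE T9 had 6 higher and 2 lower, 20.5% against 20.3% (10.7% higher, 9.61% lower). These 4 shares stood near those of all genes. With the replicate number, or the slide, as a fixed block OSCE 8 had 13 or 14 members called, and with an offset of 50 or no background correction 15. The share of all genes called in these other fits is not given here. A change in the members can therefore not be told from one in all genes. OSCK had 10 higher and 1 lower, 28.2% against 16.9% of all genes (8.14% higher, 8.8% lower). The OSCK rises were led by Rrm2 (0.96 ± 0.14), Rpa3 (0.80 ± 0.12), Rpa2 (0.76 ± 0.12), Cdc6 (0.65 ± 0.11), Mcm6 (0.59 ± 0.14) and Orc1 (0.51 ± 0.12), and Mcm2, Mcm4 and Mcm7 of the helicase ring and Orc6 rose as well, by 0.37 to 0.51. Orc4 fell in OSCK, by 0.56 ± 0.17. With each array centred on its median in place of quantile normalization, the split became 5 higher and none lower in OSCK, 3 and 1 in OSE T8, 2 and 3 in OSCE 8, 5 and 1 in OSCE 13 and 0 and 4 in OSE T9, so that higher calls no longer outnumbered lower ones in OSCE 8 and OSE T9. Single arrays mattered as well. Without the second ES replicate the calls numbered 4 in each OSCE line, 5 in OSCK and 2 in OSE T9, and without the first they numbered 4 in OSE T8, 3 in OSE T9 and 7 in OSCK. Without either of their own arrays OSCE 8, OSE T8 and OSCK kept 4 or 5 calls each, and OSE T9 had 5 without its first.

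Other called members differed between lines. Orc4, lower in OSCK, was also lower than in ES cells in OSCE 13 (-0.70 ± 0.17), with 5.10 and 5.54 there against 6.0 and 6.03 in ES cells, and Tyms was lower in OSE T9 (-0.58 ± 0.10), with 10.06 and 9.99 against 10.63 and 10.58. Pold2 and Pold1, both of polymerase delta, were lower in OSCE 8, by 0.56 and 0.40. Rfc1, the large loader subunit, was higher in OSE T8 (0.32) and lower in OSE T9 (-0.39), and Rrm1 was higher in OSCE 8 (0.55) and lower in OSCE 13 (-0.47). In all, 15 members were called higher in at least 1 line, 6 lower in at least 1, and 20 in none. The matching counts over all genes are not given here, so these counts are not read as a trait of the members. Mcm10, by its member probe, and Gmnn, among the members with the largest differences between MEFs and ES cells, were called in no line against ES cells.

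Between lines, every called difference of a member was below 2-fold by its brightest probe. Mcm6 probe 540181, described further on, averaged 10.40 in OSCE 8 and 7.35 in OSCK. The Orc4 differences below are also of its brightest probe alone. Orc4 probe 5550288 averaged 5.36 in OSE T8, 5.21 in OSE T9 and 5.34 in OSCE 13, and 5.65 in OSCE 8 and 5.55 in OSCK. The dim Orc4 probe 4230538 averaged 4.64 in OSE T8, 4.81 in OSE T9 and 5.23 in OSCE 13, and 4.89 in OSCE 8 and 4.66 in OSCK. OSE against OSCE lines gave 5 higher and 5 lower, 25.6% against 23.3% of all genes (12.2% higher, 11.1% lower). Orc1 (0.35 ± 0.08) was at one end and Rrm1 (-0.40 ± 0.09) and Tyms (-0.36 ± 0.07) at the other. Against OSCE 13 alone, which shared slides with the OSE lines, Rrm1 turned to 0.11, and with each line as 1 replicate limma called 0 members, with 0 at an unadjusted p under 0.05. Median centring turned this into 0 higher and 6 lower, and 5 or 6 calls were left without the second OSE T8, the second OSCE 8 or either OSCE 13 replicate. OSE lines against OSCE 13 gave 4 higher and 2 lower, 15.4% against 20.2% (10.2% higher, 9.99% lower), and median centring gave 1 and 2. Orc4 was the highest, at 0.67 ± 0.15, and 1 call was left without the first OSCE 13 replicate, 2 without the second and 3 without the second OSE T8 replicate. OSE T8 against OSE T9 gave 6 higher and none lower, 15.4% against 12.5% (5.4% higher, 7.09% lower). With the replicate number or the slide as a fixed block there were 13 calls, 12 higher and 1 lower, and with only these 2 groups limma called 0 (8 at an unadjusted p under 0.05). The share of all genes called in these fits is not given here. Rfc1 led them (0.71 ± 0.11), with 9.56 and 9.63 in OSE T8 against 8.77 and 9.0 in OSE T9. There were 11 calls without the first OSE T9 replicate, 2 without the second and 3 without the second OSE T8 replicate. OSCE 8 against OSCK gave 2 higher and 7 lower, 23.1% against 17.4% (8.56% higher, 8.84% lower), among them Pole (-0.71 ± 0.16), Cdt1 (-0.60 ± 0.12) and Rrm2 (-0.57 ± 0.14) lower and Orc4 (0.70 ± 0.17) higher. Median centring gave 1 higher and 2 lower, and leaving out any one of the 4 arrays gave 3 or 4 calls. Macrophage markers, detected in 8 of 9 in OSCE 8 and 6 of 9 in OSCK, summed to 10.92 to 10.94 in OSCE 8 and 9.99 in OSCK, and muscle markers to 9.16 to 9.25 in OSCE 8 and 8.40 to 8.61 in OSCK. Pluripotency genes summed to 13.56 to 13.62 in OSCE 8 and 14.33 to 14.36 in OSCK, and 3 endothelial markers to 7.28 to 7.31 in OSCE 8 and 8.31 to 8.37 in OSCK. The endothelial sum includes Pecam1, detected in ES cells and every iPS line, and need not stand for endothelial cells. The part of these cell types in the differences was not tested.

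The MEF types differed from each other in 4 members, 1 higher and 3 lower, 10.3% against 11.5% of all genes (5.32% higher, 6.16% lower). Rrm1 was lower in Actin-GFP than in Pou5f1-GFP MEFs by 0.98 ± 0.13 (limma adjusted p = 7.55e-05), Pola2 by 0.60 ± 0.12 and Pold1 by 0.48 ± 0.12, and Gins4 was higher by 0.39 ± 0.12. Pola2 had 6.67 and 6.54 in Actin-GFP MEFs against 7.31 and 7.11 in Pou5f1-GFP MEFs, and Gins4 had 10.61 and 10.62 against 10.27 and 10.17. With median centring Rrm1 alone was called, and 2 members were called without either Actin-GFP MEF replicate and 1 without the first Pou5f1-GFP MEF replicate. Macrophage markers summed to 13.02 to 13.06 in Actin-GFP MEFs and 11.27 to 11.28 in Pou5f1-GFP MEFs, while muscle markers summed to 9.37 to 9.45 in Actin-GFP MEFs and 10.18 to 10.22 in Pou5f1-GFP MEFs. Their part in these differences was not tested.

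Mcm6, a subunit of the helicase ring, had 3 tested probes that did not move alike. The brightest, probe 6510110, had 9.10 and 9.04 in Actin-GFP MEFs and 9.46 and 9.22 in Pou5f1-GFP MEFs, against 10.28 and 10.10 in ES cells. Probe 540181 had 9.33 and 9.63 in Actin-GFP MEFs and 10.11 and 10.58 in Pou5f1-GFP MEFs, against 7.30 and 7.75 in ES cells, a difference of 2.39 ± 0.20 (limma adjusted p = 7.53e-08 over 21551 probes). That probe was low in ES cells and OSCK alone, with 7.11 and 7.59 in OSCK, and between 9.88 and 10.66 on the 8 arrays of the Esrrb lines. The Esrrb lines therefore lay 2.80 ± 0.18 above ES cells by this probe, against 0.24 ± 0.11 by the brightest. The third probe, 60092, was dim and fell in MEFs by 0.73 ± 0.21. ES cells, OSCK, OSCE 8 and both MEF groups shared slides, so that the high and the low arrays of probe 540181 lay on the same slides. Among the 16 members with several tested probes, the probes of 15 had the same sign for MEFs against ES cells, and Mcm6 was the exception. Which part of the transcript each probe reads is not given in the sources used here.

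**Figure D4:**
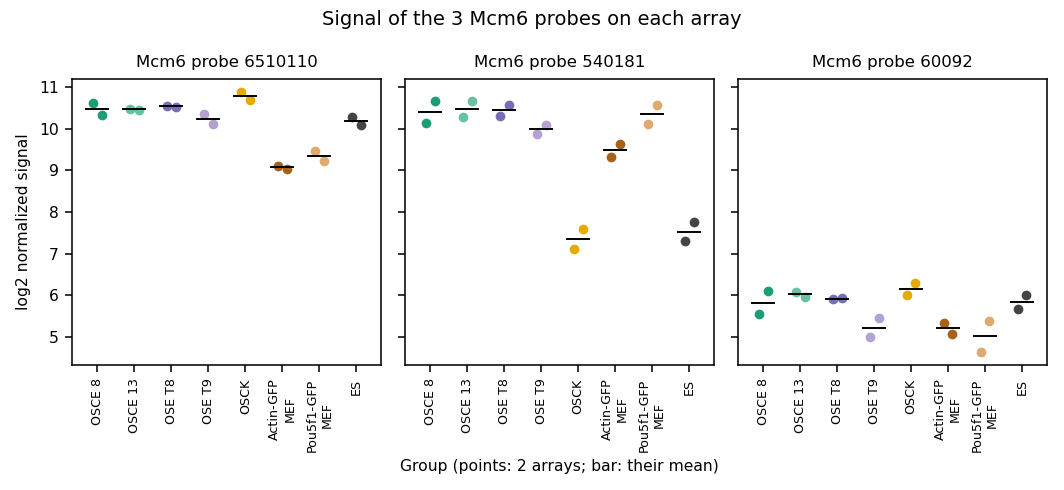
Log2 normalized signal of the 3 Mcm6 probes on every array (points) with the mean of each group (bar). Probe 540181 sits below 8 in OSCK and ES cells and above 9 in all other groups, while probe 6510110 is lowest in the MEFs.

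Across the 8 groups both MEF types were the lowest for 35 of the 39 members. This order largely repeats the comparison of MEFs with ES cells, in which 30.3% of all genes were lower. OSCK was the highest group for 14 members, OSE T8 for 10, OSE T9 for 5, OSCE 8 and ES cells for 4 each, and Pou5f1-GFP MEFs for 2. The shares of all genes lowest in both MEF types, or highest in each group, are not given here. The order of the lines and ES cells rests on small differences, since 20 members were called in none of the 5 lines against ES cells. Over the 8 group means, the 741 pairs of members had a median Pearson correlation of 0.91, a description that mostly carries the split between MEFs and the other groups, since all points come from the same 16 arrays. Orc3 and Rrm1 stood apart, with median correlations of -0.35 and -0.17 with the other members. Mcm10 had the widest range of group means, and the genes most like it over the 8 groups were Zfp979 and Nup210 (Pearson r of 0.997 each), then LOC625421, Plekhd1 and a RIKEN clone (0.995 each).

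Among the members with a promoter window, the 10 measured genes with an E2F match had a median of -1.34 for MEFs against ES cells, with 9 called lower, and the 23 without one had a median of -0.98, with 21 called lower. Orc3 was the member with a match, TTTCCCGC, that was not called. Mcm10, Rfc5 and Mcm2, with no whole match in their windows, were among the 4 largest falls. No test was made of this division.

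Among genes that work beside the replication machinery, the share lower in MEFs varied by list, against 30.3% lower and 30.7% higher of all genes. For MEFs against ES cells, chromatin assembly genes fell in 8 of 10 measured members, led by Hells, a chromatin remodeller (-2.92 ± 0.15), and Nasp, a histone chaperone (-1.63 ± 0.09). Accessory genes of the polymerases and clamp fell in 10 of 13, with Chtf18, of an alternative clamp loader, at -2.48 ± 0.12 and Rnaseh2a, which removes RNA from DNA, at -1.67 ± 0.13. Fork and checkpoint genes fell in 10 of 14, among them the recombination gene Brca2 (-1.65 ± 0.15). Regulators of licensing and firing fell in 7 of 16 and rose in 2; Ccne1, cyclin E1, fell by 2.13 ± 0.12 and Ticrr, a firing factor, by 1.96 ± 0.12. Nucleotide supply beyond the 4 members fell in 6 of 13 and rose in 2, E2F and pocket protein genes fell in 5 of 9 and rose in 1, and mitosis markers fell in 9 of 12 and rose in 2.

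In the Esrrb lines against MEFs, where 34.5% of all genes were higher, the same lists rose in 10 of 10 chromatin assembly genes, 11 of 13 accessory genes, 12 of 14 fork and checkpoint genes, 10 of 16 regulators, 8 of 13 nucleotide supply genes, 5 of 9 E2F and pocket protein genes and 11 of 12 mitosis markers. Against ES cells, where 22.5% of all genes were called, the lines had 5 of 16 regulators higher and 1 lower, 2 of 13 accessory genes higher and 4 lower, 3 of 13 nucleotide supply genes higher and 2 lower, and 3 of 12 mitosis markers higher. Chromatin assembly and fork and checkpoint had 1 gene higher each, of 10 and 14, and the E2F list 1 higher and 1 lower of 9, shares at or below that of all genes. The largest of these was Plk1, a mitotic kinase, at 11.25 in the Esrrb lines and 10.16 in ES cells (difference 1.09 ± 0.09, limma adjusted p = 3.26e-07). Ccne2, cyclin E2, was 0.67 ± 0.12 higher and Dut, which removes dUTP, 0.90 ± 0.22 higher, while Chtf18 and Cad, of pyrimidine synthesis, were lower, by 0.48 and 0.46.

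Under names outside the rule, the table held targets that RefSeq lists as synonyms of Gins1 (2810418N01RIK), Gins2 (4833427B12RIK) and Mcm10 (C330019M07RIK, and 2410041F14RIK, which was not tested). They were not counted among the members. 2810418N01RIK was at 7.29 in MEFs and 8.74 in ES cells, a difference of -1.45 ± 0.12, and rose by 1.68 ± 0.08 in the Esrrb lines against MEFs. 4833427B12RIK was at 9.34 in MEFs and 9.53 in ES cells and was not called (-0.18 ± 0.10), and it was 0.63 ± 0.07 higher in the Esrrb lines than in MEFs and 0.45 ± 0.09 higher than in ES cells. C330019M07RIK was dim, detected on no MEF array, on 6 of 8 arrays of the Esrrb lines and on both arrays of OSCK and of ES cells. It averaged 6.04 in OSCK and 5.03 in ES cells and was called higher in OSCK (1.01 ± 0.13, limma adjusted p = 6.47e-05), unlike the Mcm10 probe. It was also called higher in OSCE 13 than in ES cells (0.40 ± 0.13) and lower in OSE than in OSCE lines (-0.29 ± 0.09).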

How the data were processed

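The authors deposited a raw table with the signal intensity of 46643 probes on each array. Per the file headers it came from BeadStudio 3.2.6, with normalization and error model both set to none. The deposited detection score is a fraction that equals 1 minus the detection p. Bead numbers were deposited as well, with a median of 37 per probe. The deposited normalized values were not used, since their probe names could not be paired with the raw table. Background was removed by normexp from the detection p (limma 3.58.1, R 4.3.3, offset 16), followed by quantile normalization and log2. For each gene the brightest probe over all arrays was taken, and it was kept if that probe was detected (detection p under 0.01) on at least 2 arrays, which left 15643 of 32091 genes.

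A limma fit with 1 mean per group over all 16 arrays gave 14 comparisons, in which several lines or MEF types were averaged with equal weight. P values were adjusted over all genes by the method of Benjamini and Hochberg, and calls were made below 0.05. The fit kept 8 residual degrees of freedom and gained 6.23 from moderation, and the 2 arrays per group limit the precision. Differences are the group named first minus the group named second, on log2, with the standard error (SE) of the fit. Deviations of the first replicates from their group means correlated positively in all 28 group pairs (range 0.0984 to 0.430), and above 0.1 in 27. The arrays thus shared some variation by replicate number, which goes with the slide. The rule applied asked for a correlation above 0.1 in every pair, so the main fit held no block. Blocks by replicate number and by slide were run as alternatives. Alternatives covered background correction, scaling, dim probes, choice of probe, slides, blocks and leaving out arrays. The code was tested on simulated data. All members may be named, each comparison with up to 6 of the largest changes in each direction and every member against the majority, and neighbouring lists with up to 3 called genes. The members and lists were chosen with earlier results of these data known.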

Additional observations from a re-analysis of the deposited data

Results flagged for a closer look

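Single gene values were checked for a gap from the next value, over the MEF arrays and over the Esrrb line arrays. These pool different groups, so the usual chance rate of about 1 in 20 need not apply. Of 78 checks, 4 values were flagged. They were Mcm7 in the second Actin-GFP MEF replicate (9.35 log2, next 9.51), Rfc4 in the second Pou5f1-GFP MEF replicate (9.51, next 9.29), Rpa3 in the first Pou5f1-GFP MEF replicate (8.96, next 8.76) and Gins4 in the first OSE T9 replicate (11.54, next 11.28).

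Lines that share slides differed in their difference from ES cells, tested directly as the contrast between the lines. OSE lines minus OSCE 13 gave Mcm5 0.28, Mcm7 -0.30, Orc1 0.41, Orc3 0.37, Orc4 0.67 and Tyms -0.36. OSE T8 minus OSE T9 gave Cdc6 0.37, Mcm7 0.49, Prim2 0.54, Rfc1 0.71, Rpa1 0.36 and Rpa2 0.57. OSCE 8 minus OSCK gave Cdt1 -0.60, Mcm2 -0.43, Orc1 -0.39, Orc4 0.70, Pold2 -0.48, Pole -0.71, Rfc3 0.36, Rpa2 -0.38 and Rrm2 -0.57. All are log2 differences below 2-fold, by the brightest probe of each gene. The other Orc4 probes, described above, did not all move alike.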

How the results depend on the processing

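The comparisons with MEFs kept their counts within 1.5 times under every alternative run for them, and 29 of 36 members lower in MEFs than in ES cells, 34 of 37 called between the Esrrb lines and MEFs and 31 of 35 between OSCK and MEFs kept their call in all. Mcm6 reversed for MEFs against ES cells, to 2.39 with every probe on its own and 0.23 with the mean of the detected probes. Rrm1 reversed with OSCE 8 alone against MEFs (0.41) and with OSE lines against OSCE 13 alone (0.11). Leaving out 1 array gave 36 to 37 members for MEFs against ES cells, 37 to 38 for the Esrrb lines and 35 to 36 for OSCK against MEFs. The smaller comparisons were less stable: 4 to 8 (Esrrb lines against ES cells, fewest without the second ES replicate), 5 to 7 (OSCK against ES cells), 4 to 6 (OSCE 8), 4 to 5 (OSCE 13), 4 to 6 (OSE T8) and 2 to 8 (OSE T9, fewest without the second ES replicate) against ES cells, 5 to 11 (OSE against OSCE lines), 1 to 5 (OSE lines against OSCE 13), 3 to 4 (OSCE 8 against OSCK), 2 to 11 (OSE T8 against OSE T9) and 1 to 3 (MEF types). Median centring gave 3 for the Esrrb lines, 5 for OSCK, 5 for OSCE 8, 4 for OSE T8 and 4 for OSE T9 against ES cells, 6 for OSE against OSCE lines, 3 for OSE lines against OSCE 13, 3 for OSCE 8 against OSCK and 1 for the MEF types; it moved the median of all genes from 0.03 to -0.09 for the Esrrb lines against MEFs and from 0.02 to -0.09 for OSCK against MEFs. OSCE 8 against ES cells had 15 with an offset of 50, 15 with no background correction, 13 with the replicate block, 13 with slide as a random block, 14 with slide as a fixed block and 4 with its own groups only. OSE T8 against OSE T9 had 10 with an offset of 50, 10 with no background correction, 13 with the replicate block, 11 with slide as a random block, 13 with slide as a fixed block and 10 with the mean of the probes; with only its own groups limma called 0, and 8 members had an unadjusted p under 0.05. OSCE 8 against OSCK had 14 with slide as a fixed block. OSE T8 against ES cells had 13 with the mean of the probes and the Esrrb lines against ES cells 11 with every probe on its own. With only their own groups, OSE T9 against ES cells had 1, OSE against OSCE lines 4 and OSE lines against OSCE 13 had 1. Counting each line as 1 replicate in limma left 0 for the Esrrb lines against ES cells, 0 for OSE against OSCE lines and 0 for OSE lines against OSCE 13, which have fewer samples by construction; 4, 0 and 0 members had an unadjusted p under 0.05. OSE lines against OSCE 13 alone in place of both OSCE lines gave 6. The replicate block changed no other count by over 1.5 times. The fixed slide block and the single-line choices were made after seeing the data, and the causes were not tested. All counts under alternatives, here and above, are of members alone, without the share of all genes called in the same fit. A change in such a count can therefore not be told from a change over all genes.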
